A study of Homo sapiens with 4 samples.

Results

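The transcripts of 9 genes that carry the interferon signal from the cell surface to the nucleus were followed in MV4-11 cells after knockdown of IRF1. They are the receptor subunits IFNAR1, IFNAR2, IFNGR1 and IFNGR2, the Janus kinases JAK1, JAK2 and TYK2, and the transcription factors STAT2 and STAT3. They were picked by gene symbol, all 9 were found among the 23622 genes of the table, and all 9 had enough reads to be tested. MV4-11 is a human acute myeloid leukemia cell line with a KMT2A-AFF1 fusion and a FLT3 internal tandem duplication, and the labels give WT as the genotype of all 4 libraries. The control group, sh-NC, had 2 libraries whose labels describe them as untreated. The column names and the study's methods instead describe a control hairpin. The sh-IRF1 group had 2 libraries with IRF1 knockdown. In the study's methods hairpins were delivered by lentivirus in the pLKO.1 vector and infected cells were selected with puromycin. By that account this holds for both groups. Were the controls untreated, infection and selection could not be told apart from the knockdown. All libraries are of a single line. The sources used here do not say which hairpin each sh-IRF1 library carries or whether the libraries of a group come from separate cultures, so the p-values measure only the spread between these libraries.

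Interferons signal through paired receptor chains. Type I interferons bind IFNAR1 and IFNAR2, whose tails hold TYK2 and JAK1, and interferon gamma binds IFNGR1 and IFNGR2, whose tails hold JAK1 and JAK2. The activated kinases phosphorylate STAT proteins, which enter the nucleus. After type I interferon, STAT2 acts in a complex with IRF9. IRF1 is itself induced by interferon gamma, and it binds many of the same promoter elements as the complex with STAT2 and IRF9. JAK1, JAK2, TYK2 and STAT3 also serve other cytokine receptors, among them those for interleukin-6, GM-CSF and G-CSF that are used by myeloid cells. STAT3 is the main factor downstream of the interleukin-6 and G-CSF receptors.

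The study lists 2 hairpins against IRF1, and their targets are shown to give how much of each occurs in transcripts of these 9 genes. Capitals mark the longest run of bases that also occurs in a GENCODE 44 transcript of JAK1, the member with the largest called change.
sh-IRF1#1: gcaccagtgATCTGTACAAct
sh-IRF1#2: ggaaattacctgAGGACATCA
The longest shared run with JAK1 was 10 of 21 bases for the first target and 9 of 21 for the second. Over the transcripts of all 9 genes the longest run lay between 7 and 10 bases for either target, while both targets occurred in IRF1 transcripts over all 21 bases. The length of a shared run does not show whether a hairpin acts on a transcript, and this was not tested.

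The deposited values are reads per gene divided by 1 size factor per library, called normalized counts here. The libraries held between 17635908 and 18695337 reads. Fold changes are differences of log2(normalized count + 1), on which the change of low genes comes out too small. limma was run over 14120 genes, and a gene is called when its adjusted p is under 0.05. Exact permutation of 4 libraries in pairs reaches a two-sided p of 0.33 at best, and the calls therefore lean on variance information that limma pools over the genes. IRF1 itself had normalized counts of 785 and 738 in the sh-NC libraries and 429.7 and 432 in the sh-IRF1 libraries, so both knockdown libraries carried less IRF1 RNA and kept 56.6% of the control mean. Its log2 fold change was -0.82 ± 0.0904 (SE), and the antisense gene IRF1-AS1 overlaps 22.9% of its exonic bases. The 10 listed markers of the myeloid leukemia line were all tested, and their summed normalized count ran from 43554 to 43881 in sh-NC and from 39505 to 39808 in sh-IRF1. Among them LYZ (log2 fold change 0.85), ITGAM (0.64) and SPI1 (0.17) rose. MPO (-1.42), FCGR1A (-0.57), PTPRC (-0.48), FLT3 (-0.46) and CSF1R (-0.19) fell, and CD33 and CD4 were not called. FLT3 alone fell from 17391 and 17412 to 12745 and 12634 normalized counts, by more than the sum did. The part of this shift in the results was not tested. The B cell marker CD79A rose from 50.3 and 43.1 to 190.0 and 250.2 normalized counts, MS4A1 was not analysed here, and the part of this rise in the results was not tested. The epithelial markers KRT8, which rose (log2 fold change 0.57), and KRT18 summed to between 254 and 392 and the fibroblast markers to between 28.8 and 52.7, while the T cell and erythroid markers were not analysed here. In bulk RNA, fewer cells of a type and less RNA per cell cannot be told apart.

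After IRF1 knockdown JAK1, IFNGR1 and IFNGR2 were lower, and TYK2 and STAT3 were higher. JAK1 changed most, to 77.1% of the control level, and TYK2 rose to 112%. IFNAR1, IFNAR2, JAK2 and STAT2 did not pass the test. Thus 3 members were called lower and 2 higher, 5 of 9, while 42.2% of all 14120 tested genes were called in either direction, 21.9% lower and 20.3% higher. The count fell to 2 of 9 with DESeq2, without sh-NC replicate 1 and without sh-IRF1 replicate 2, and to 3 of 9 without sh-IRF1 replicate 1 and with no filter on low values. Calls over all genes fell with DESeq2 as well, from 2861 higher and 3092 lower by limma to 2312 and 2605. So the share of members called is no result about them, and their log2 fold changes ran from -0.38 to 0.24. No member passed the study's minimum log2 fold change of 0.5 together with the adjusted p, which 15.8% of tested genes did. The median log2 fold change was 0.070 over the 9 members and -0.0019 over all tested genes. In 8 of 9 members the libraries of the groups did not overlap, as in 69.2% of tested genes.

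Of the receptor chains, those for interferon gamma were lower. IFNGR1 (ENSG00000027697, chromosome 6, 137197483 to 137219449 on GRCh38) encodes the ligand-binding chain that holds JAK1. It had normalized counts of 748 and 774 in sh-NC and of 671 and 656 in sh-IRF1. Both knockdown libraries lay below both controls. The group levels were 761 ± 18.8 and 664 ± 11.0 (SD, n = 2 each). By limma the log2 fold change was -0.20 ± 0.0811 (SE), at an adjusted p of 0.0459. This call lies at the edge of the threshold: it was lost with any 1 of the 4 libraries left out, with adjusted p from 0.0637 to 0.176, and with edgeR (0.0511) and DESeq2 (0.107) on the recovered reads.

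IFNGR2 (ENSG00000159128, chromosome 21, 33403413 to 33479348), the second chain, holds JAK2 and is needed to pass the signal on. Its normalized counts were 792 and 723 in sh-NC and 698 and 602 in sh-IRF1. The knockdown libraries were again the lower ones, though the gap between the groups was narrower than the gap between the replicates of either group. The levels were 757 ± 48.7 and 650 ± 68.4 (SD, n = 2 each). By limma the log2 fold change was -0.22 ± 0.0857 (SE), at an adjusted p of 0.0319. The call was lost without sh-NC replicate 1 (log2 fold change -0.16, adjusted p = 0.222), without sh-IRF1 replicate 2 (-0.12, adjusted p = 0.415) and with DESeq2 (adjusted p = 0.0961). Of its exonic bases, 15% are shared with TMEM50B on the opposite strand, and the use of strand in counting is not given in the sources used here.

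The receptor chains for type I interferon did not pass the test. IFNAR1 (ENSG00000142166, chromosome 21, 33324387 to 33359864), which holds TYK2, had normalized counts of 1617 and 1661 in sh-NC and of 1719.85 and 1547 in sh-IRF1. The knockdown libraries lay on either side of the controls. Its log2 fold change was -0.0066 with a 95% interval of -0.12 to 0.11, so a change beyond about that size in either direction lies outside the interval, and the sign depended on the setting (0.038 with total-read scaling).

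IFNAR2 (ENSG00000159110, chromosome 21, 33205282 to 33265675), the chain that binds interferon most tightly and holds JAK1, was by far the lowest of the members. It had 83.1 and 81.1 normalized counts in sh-NC and 98.5 and 96.5 in sh-IRF1. Both knockdown libraries were above both controls, by more than the replicates differed from each other. At 79 to 103 reads per library the log2 fold change of 0.24 had a 95% interval of -0.20 to 0.69 and an adjusted p of 0.398 from limma, so a change of this size was not detectable at this depth. The gene shares 27.7% of its exonic bases with other genes, 14.7% with the read-through gene IFNAR2-IL10RB on the same strand, so its reads are uncertain.

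IFNAR2, IL10RB, IFNAR1 and IFNGR2 lie side by side on chromosome 21 between 33205282 and 33479348. Of this receptor cluster only IFNGR2 was called. IL10RB, the shared chain of the interleukin-10 and lambda interferon receptors, had 12.3 and 16.4 normalized counts in sh-NC and 30.8 and 30.9 in sh-IRF1. Its log2 fold change of 1.07 missed the threshold (adjusted p = 0.0524 from limma), and IFNAR2-IL10RB covers 21.6% of its exonic bases.

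**Figure D1:**
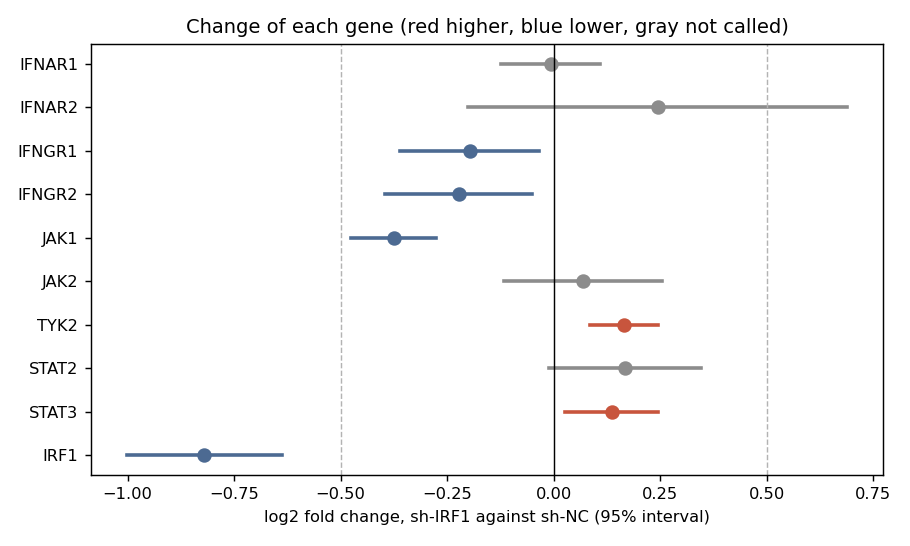
Log2 fold change of each member and of IRF1 with its 95% interval from limma, sh-IRF1 against sh-NC, with dashed lines at 0.5 in either direction. JAK1, IFNGR1 and IFNGR2 lie below 0 with intervals that exclude it, TYK2 and STAT3 above 0, and all 9 members lie inside the dashed lines, unlike IRF1 at -0.82.

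Among the kinases, JAK1 and TYK2 moved in opposite directions. JAK1 (ENSG00000162434, chromosome 1, 64833223 to 65067754) serves all interferon receptors and the receptors of the interleukin-6 and common gamma chain families. It had normalized counts of 2484 and 2463 in sh-NC and of 1956 and 1859.9 in sh-IRF1. Both knockdown libraries were far below the controls, which differed little from each other. It fell from 2474 ± 15.2 to 1908 ± 67.7 (SD, n = 2 each). By limma the log2 fold change was -0.38 ± 0.0496 (SE), at an adjusted p of 1.70e-08. The call held under all 15 alternatives, with log2 fold changes from -0.41 to -0.33. By size it was an ordinary change, since 35.4% of tested genes had a larger one.

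TYK2 (ENSG00000105397, chromosome 19, 10350533 to 10380608), the kinase of IFNAR1 and of the interleukin-12 and interleukin-10 receptors, was the most abundant member. Its normalized counts were 3749 and 3713 in sh-NC and 4167 and 4204 in sh-IRF1. The replicates were nearly equal in both groups, and the knockdown libraries were the higher ones. It rose from 3731 ± 25.6 to 4186 ± 26.4 (SD, n = 2 each). By limma the log2 fold change was 0.17 ± 0.0394 (SE), at an adjusted p of 0.000536. This call too held under all 15 alternatives, with log2 fold changes from 0.16 to 0.21. The change was small, since 65.8% of tested genes had a larger one.

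JAK2 (ENSG00000096968, chromosome 9, 4984390 to 5129948) works with IFNGR2 and with the receptors for erythropoietin, thrombopoietin and GM-CSF. It had 521 and 553 normalized counts in sh-NC and 567 and 559 in sh-IRF1. The knockdown libraries lay just above the higher control, by less than the controls differed from each other. The log2 fold change was 0.070 with a 95% interval of -0.12 to 0.26 (adjusted p = 0.582 from limma), an interval that covers both a slight fall and a rise.

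STAT3 (ENSG00000168610, chromosome 17, 42313324 to 42388540) had normalized counts of 1619.7 and 1694 in sh-NC and of 1842 and 1799 in sh-IRF1. Both knockdown libraries were above both controls. The levels were 1657 ± 52.3 and 1821 ± 30.6 (SD, n = 2 each). By limma the log2 fold change was 0.14 ± 0.0543 (SE), at an adjusted p of 0.0393. The call was lost without sh-NC replicate 1 (log2 fold change 0.10), without sh-IRF1 replicate 1 (0.12), without sh-IRF1 replicate 2 (0.15) and with DESeq2 (adjusted p = 0.0908).

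STAT2 (ENSG00000170581, chromosome 12, 56341597 to 56360203), the partner of IRF9 in the type I interferon complex, had 609 and 567 normalized counts in sh-NC and 623 and 699.9 in sh-IRF1. The knockdown libraries were the higher ones, but 1 of them was close to the upper control. Its log2 fold change of 0.17 was as large as that of TYK2, yet with a 95% interval of -0.011 to 0.35 it did not pass the test (adjusted p = 0.128 from limma). With total-read scaling it was 0.21 and was called (adjusted p = 0.0495).

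**Figure D2:**
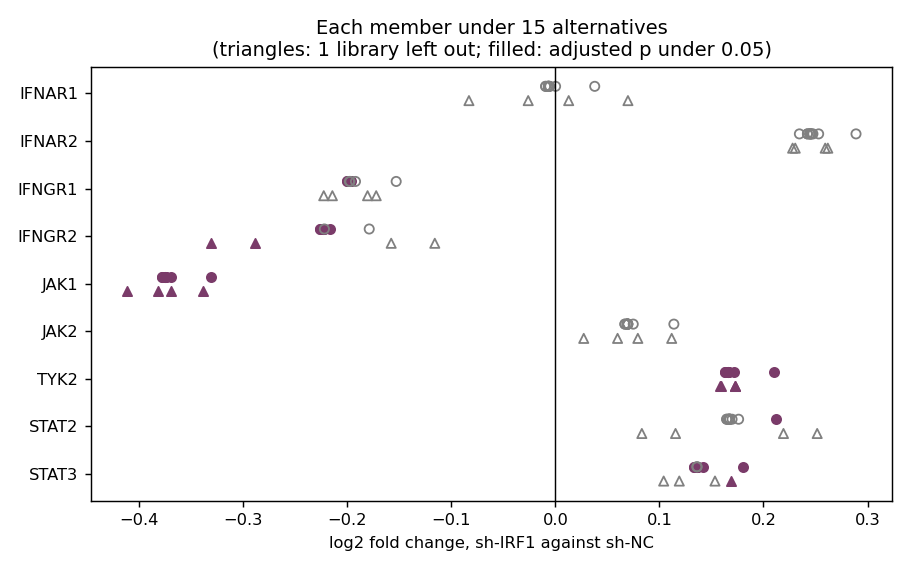
Log2 fold change of each member under 15 alternatives (circles: other scaling, pseudocount, filter, model or test, triangles: 1 library left out), filled where the adjusted p was under 0.05. JAK1 and TYK2 are filled throughout, IFNGR1 under 7 of 15, IFNGR2 under 11, STAT3 under 10 and STAT2 under 1, and IFNAR1 lies on both sides of 0.

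Since the receptor chains and kinases act in pairs, the ratio of the partners was computed within each library on the log2(normalized count + 1) scale. The ratio of JAK1 to TYK2, the kinases of the type I receptor, was -0.59 in both sh-NC libraries and -1.09 and -1.18 in the sh-IRF1 libraries. It was thus 0.54 lower after knockdown, against a pooled SD of 0.043 between replicates. The ratio of JAK1 to JAK2, the kinases of the interferon gamma receptor, was 2.25 and 2.15 in sh-NC and 1.78 and 1.73 in sh-IRF1, a difference of -0.44. For both pairs every knockdown library was lower than every control. On this scale the differences follow from the fold changes of the single genes, so they are no separate result.

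The proportion of the interferon gamma receptor chains differed between groups by less than the replicate spread. The log2 ratio of IFNGR1 to IFNGR2 was -0.083 and 0.099 in sh-NC and -0.057 and 0.12 in sh-IRF1, so the groups overlapped. The ratio of IFNAR1 to IFNAR2 was 4.27 and 4.34 in sh-NC and 4.11 and 3.99 in sh-IRF1, without overlap, but it rests on the few reads of IFNAR2. The ratio of STAT2 to STAT3 was -1.41 and -1.58 in sh-NC and -1.56 and -1.36 in sh-IRF1, with overlap. An exact two-sided permutation test gave p = 0.33, the smallest this design allows, for the 3 pairs without overlap and p = 0.67 for the other pairs of the 5 compared. This test cannot pass a threshold of 0.05 with 4 libraries, and no model-based test of the ratios was run.

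**Figure D3:**
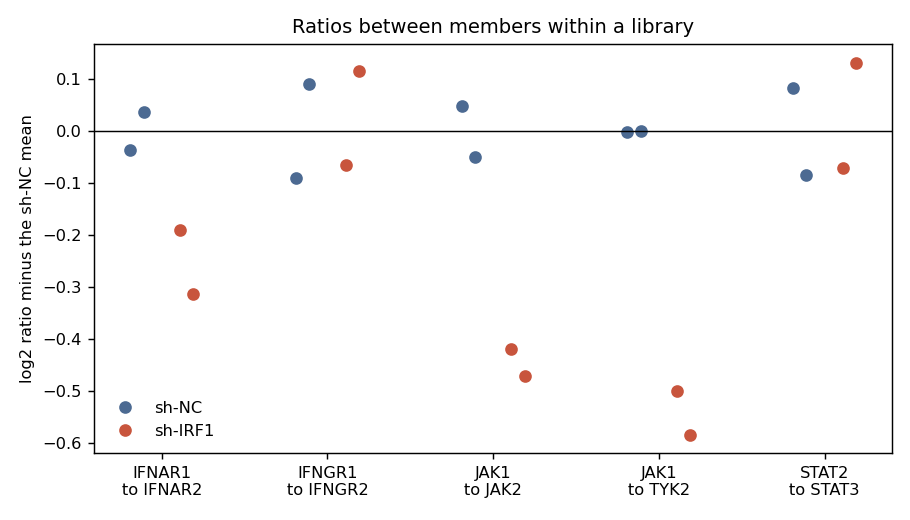
Log2 ratio between paired members in each library, minus the mean of the sh-NC libraries (blue sh-NC, red sh-IRF1). The sh-IRF1 libraries lie between -0.58 and -0.42 for both JAK1 ratios, while they overlap the controls for IFNGR1 to IFNGR2 and STAT2 to STAT3.

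The summed normalized count of the 9 members hardly moved, since rises and falls balanced. It was 12223 and 12229 in sh-NC and 12342 and 12023 in sh-IRF1, or 99.6% of the control sum. By role, the 4 receptor chains summed to 94.0% of the control, the 3 kinases to 98.7% and STAT2 with STAT3 to 111%. The last sum leaves out STAT5B at 78.6%, STAT6 at 88.6% and STAT5A at 111% of the control. These sums are not divided by length, so genes with many reads weigh most.

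To compare levels between genes, normalized counts were divided by the length of the Ensembl canonical transcript in GENCODE 44. In sh-NC, TYK2 led with a mean of 879 normalized counts per kilobase, above 88.7% of the tested genes. JAK1 followed at 486, IFNGR2 at 446, IFNGR1 at 367, STAT3 at 337, IFNAR1 at 269.8, STAT2 at 134, JAK2 at 76.4 and IFNAR2 at 20.2, the last above 19.5% of the tested genes. No neighbours in this order overlapped over the sh-NC libraries.

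The receptor chains differed in balance on this scale. IFNAR1 was 13.4 times as high as IFNAR2 per kilobase, whereas IFNGR1 stood at 0.823 times the level of IFNGR2. Of the exonic bases of IFNAR2, 2038 are shared with IFNAR2-IL10RB and 1803 with IL10RB-DT on the opposite strand. How reads in shared bases were counted is not given in the sources used here. The level, last rank and ratio of IFNAR2 are therefore uncertain. Among kinases TYK2 was 1.81 times as high as JAK1, and JAK1 6.36 times as high as JAK2. With all annotated exonic bases of a gene as the length, JAK1 stood at only 2.77 times JAK2, while IFNAR1 stood at 17.7 times IFNAR2, IFNGR1 at 0.719 times IFNGR2 and TYK2 at 2.33 times JAK1. In sh-IRF1 the middle of the order closed up: IFNGR2 (354 to 411 per kilobase), JAK1 (365 to 384) and STAT3 (366 to 374) overlapped, so that JAK1 no longer stood apart from IFNGR2 and STAT3. The order of the middle ranks also depends on the length used. Divided by all exonic bases, TYK2 stayed first and IFNAR2 last in sh-NC, while JAK1 went from rank 2 to rank 4.

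**Figure D4:**
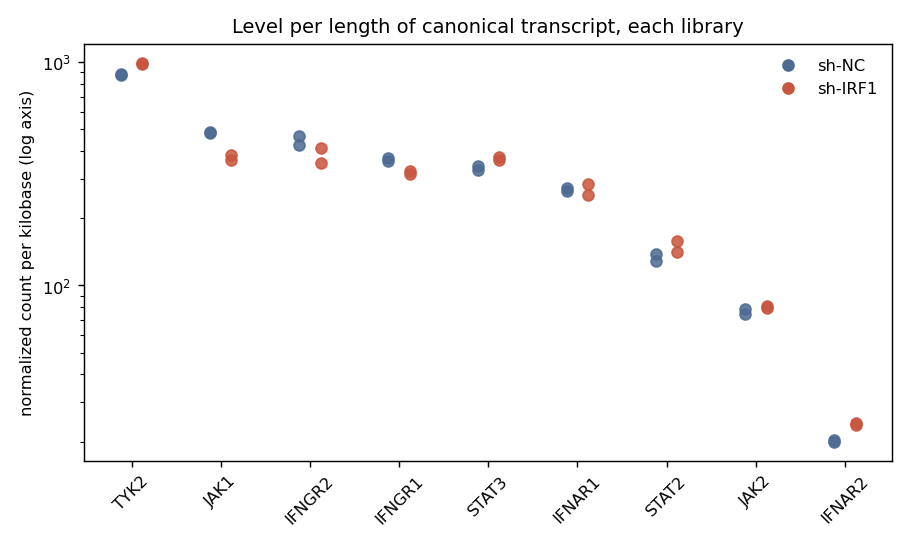
Level of each member per kilobase of its canonical transcript in each library, on a log axis, ordered by the sh-NC mean (blue sh-NC, red sh-IRF1). TYK2 lies between 875 and 991 and IFNAR2 between 19.9 and 24.2, and the red points of IFNGR2, JAK1 and STAT3 fall in the same range.

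The other receptor, kinase and STAT genes of the pathway were listed as well, 8 genes of which 5 could be tested. By limma 2 were called lower and 0 higher, 1 (IL10RB) being higher at an unadjusted p under 0.05. With edgeR and DESeq2 also 0 were called higher. The median log2 fold change of those tested was 0.15. Among all 14120 tested genes 42.2% were called, 21.9% lower and 20.3% higher, so this count is no result about these genes. STAT5B, which acts downstream of FLT3 and GM-CSF signals, fell from 1768 and 1773 normalized counts in sh-NC to 1352 and 1432 in sh-IRF1 (log2 fold change -0.35, adjusted p = 1.62e-06), and STAT6, the interleukin-4 factor, fell from 3989 and 3893 to 3437 and 3545 (-0.18, adjusted p = 0.00040). So the STAT genes described here did not move together: STAT3 was called higher, STAT5B and STAT6 lower, and STAT2 and STAT5A (log2 fold change 0.15, adjusted p = 0.127) were not called.

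IRF9, the DNA-binding partner of STAT2, was low. It had 5.13 and 19.5 normalized counts in sh-NC and 11.9 and 19.7 in sh-IRF1, with a log2 fold change of 0.54 that was within the replicate error (adjusted p = 0.508). JAK3 was at most at 5.62 and STAT4 at most at 1.99 normalized counts in any library, too low for the test, and IFNLR1, the lambda interferon receptor, was not analysed here. The 16 listed genes of the interferon ligands were not analysed here either, so whether the cells made interferon was not tested.

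Among the listed inhibitors of the pathway more were called lower than higher. Of 19 SOCS family and PIAS proteins, phosphatases, SH2B3 and USP18, all tested, 9 were called lower and 1 higher (median log2 fold change -0.13). Across all tested genes 21.9% were called lower and 20.3% higher. With other scaling, filters or tests 7 to 9 of the list were called lower. The list was chosen with earlier results of these data known, so its counts are no result about inhibitors in general. SH2B3, the adaptor LNK that restrains JAK2, fell from 3694 and 3636 to 1747 and 1989 normalized counts (log2 fold change -0.97, adjusted p = 1.59e-21 from limma). PTPRC, the CD45 phosphatase, which can dephosphorylate Janus kinases, fell by 0.48 on the log2 scale, and SOCS5 by 0.77. PIAS4, a SUMO ligase of the family that restrains STATs, rose (log2 fold change 0.53, adjusted p = 1.39e-09). USP18, named after its values were seen because it docks on IFNAR2 and blocks type I signalling, fell from 218 and 207 to 104 and 118 normalized counts (log2 fold change -0.93, adjusted p = 1.31e-05). SOCS1 and SOCS3, the classical feedback inhibitors of interferon and interleukin-6 signalling, had log2 fold changes of -0.11 and -0.21 and were not called (adjusted p of 0.219 and 0.145).

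Chains of cytokine receptors that use the same kinases changed in both directions. Of 30 listed, 19 could be tested, 6 were called higher and 7 lower (median log2 fold change 0.068). Across all tested genes 20.3% were called higher and 21.9% lower. This list was also chosen with earlier results of these data known. IL6R (log2 fold change 0.43, adjusted p = 8.86e-11) and CSF3R, the G-CSF receptor (0.44, adjusted p = 6.59e-08), rose, as did the interleukin-2 receptor chain IL2RA from low counts (31.8 and 30.8 to 95.5 and 91.8). IL15RA (-0.67), IL4R (-0.51) and IL7R (-0.57) fell, each with an adjusted p under 0.05. IL2RB, another chain of the interleukin-2 receptor, had the largest fall of the list. It went from 120.0 and 96.5 to 43.8 and 41.2 normalized counts (log2 fold change -1.32, adjusted p = 2.93e-05 from limma). IL6ST, the shared signalling chain of the interleukin-6 family, had a log2 fold change of -0.16 and was not called (adjusted p = 0.435).

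Genes that interferon and STAT3 are known to induce were counted beside the pathway. Of 35 listed interferon response genes, 30 could be tested, 10 were called higher and 4 lower, and the median log2 fold change was 0.15. The viral RNA sensor IFIH1 rose from 176 and 177 to 370.0 and 382 normalized counts (log2 fold change 1.09, adjusted p = 2.43e-09), and IFI6 (0.98) and SAMD9L (1.07) rose too. XAF1 (-0.95), GBP4 (-0.76) and the antiviral membrane protein IFITM2 (-0.28) fell. Of 15 listed STAT3 response genes, 14 could be tested, of which 11 were called lower and 1, BCL6, higher (log2 fold change 1.63), with a median of -0.54. Those with the smallest p among the lowered ones were PIM1 (-1.28), MYC (-0.97) and VEGFA (-0.91). A place in this list does not mean that STAT3 drove the change, and STAT3 activity was not tested. For MYC the study also shows IRF1 signal at the promoter. Across all tested genes 20.3% were called higher and 21.9% lower, which is the background for the counts of these lists. These lists too were chosen with earlier results of these data known. Their counts are therefore no result about interferon or STAT3 response genes in general.

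Over the 4 libraries, the genes whose profiles were most like that of JAK1, by Euclidean distance between centred log2 values, were RPL9 (distance 0.0088), VRK1 and CARS1. Those most like TYK2 were MCM7 (distance 0.0067), SLC25A37 and WIZ. With so few libraries such likeness is common, since 465 tested genes lay within a distance of 0.1 of JAK1 and 835 of TYK2.

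The promoters of the members were searched in the RefSeq windows (GRCh38.p14) that run from 250 bases before to 50 after a gene's start. Of the 9 members 8 had a window, 15 windows in all, and IFNAR2 had none. Both strands were searched for the interferon-stimulated response element core (GAAA, any 2 bases, GAAA) and for the gamma-activated site TTCNNNGAA. None of the 15 windows held either motif, while 3.57% and 7.66% of all 35116 windows did. This says only that these letters do not occur in these windows.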

How the data were processed

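RNA of 4 MV4-11 libraries was sequenced by the authors. The deposited table holds a normalized signal per gene, reads divided by 1 size factor per library by the authors. The submitters' processing notes name HISAT2 2.0.5 and hg38. The counting tool, annotation and use of strand are not given in the sources used here. Reads were recovered, since in each library all 23622 values came out whole after division by the value of 1 read (tolerance 0.01). Symbols matched 23456 of 23622 identifiers. Positions and lengths came from GENCODE 44 on GRCh38, promoters from RefSeq.

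limma (3.58.1, R 4.3.3, trend and robust) was run on log2(normalized count + 1) for the 14120 genes that reached a normalized count of 10 in 2 or more libraries, with Benjamini-Hochberg adjustment. The study used DESeq2 with a minimum log2 fold change of 0.5. Here DESeq2 (1.42.0) and edgeR (4.0.16) on the recovered reads were alternatives, beside scaling, pseudocount, filter, shrinkage, a replicate block and leaving out each library. The scripts were tested on simulated data.

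The members and gene lists were chosen with earlier results of these data known. Of the listed genes 2 are not reported here and were left out of the counts. The text names all members, IRF1, the listed other receptor, kinase and STAT genes, the 3 called genes with the smallest p per direction in each other list, and the 3 profiles nearest to the raised and the lowered member with the smallest p. SOCS1, SOCS3, USP18, IL6ST and IL2RB were named after their values were seen. Replicates differed by more than sampling noise (mean chi-square per gene 2.52 for the sh-NC pair, 2.37 for the sh-IRF1 pair).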

Additional observations from a re-analysis of the deposited data

How the results depend on the processing

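JAK1, TYK2 and IRF1 kept direction and call under all 15 alternatives, and JAK2 and IFNAR2 kept their direction and stayed uncalled. IFNGR1 lost its call with total-read scaling (-0.15), no filter (-0.20), edgeR (-0.19) and DESeq2 (-0.20), and with each library left out (-0.22 to -0.17). IFNGR2 lost it with total-read scaling (-0.18), DESeq2 (-0.22) and 2 of 4 left-out libraries (range -0.33 to -0.12). STAT3 lost it with no filter (0.14), DESeq2 (0.14) and 3 of 4 left-out libraries (0.10 to 0.17). STAT2 was called with total-read scaling (0.21). IFNAR1 turned to 0.038 with total-read scaling and 0.00025 with edgeR, and ran from -0.083 to 0.070 with libraries left out. The cause was not tested. Total-read scaling moved the median of all genes from -0.0019 to 0.043.

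The 3 members called lower became 1 with total-read scaling and 1 with DESeq2, and 1 to 2 with a library left out. The 2 called higher became 3 with total-read scaling, 1 with no filter, 1 with DESeq2, and 1 to 2 with a library left out. Among the other receptor, kinase and STAT genes, the 0 called higher by limma (1 at an unadjusted p under 0.05, 0 with edgeR and with DESeq2) became 2 with total-read scaling, 1 with a pseudocount of 5, and 0 to 1 with a library left out. The 1 inhibitor called higher became 2 with total-read scaling. No member passed the minimum log2 fold change of 0.5 under any of the 15. The differences in the ratio of IFNGR1 to IFNGR2 (-0.065 to 0.12) and of STAT2 to STAT3 (-0.070 to 0.13) changed sign with a library left out.

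The labels number the replicates alike in both groups but name no shared batch, and deviations of same-numbered libraries were uncorrelated (-0.015). With a replicate block, 2903 genes were called higher and 3147 lower, against 2861 and 3092 without it, and no member's call changed. Depth limits IFNAR2, at 79 to 103 reads per library, and STAT4 and JAK3 were too low to be tested.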
